A study of Drosophila melanogaster with 13 samples.

Results

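The genes described here are 6 Drosophila melanogaster genes of cytosolic protein synthesis, measured in adult testes: the small-subunit ribosomal protein genes RpS29, RpS7 and RpS3A, the large-subunit ribosomal protein gene RpL18, the translation initiation factor gene eIF3l and the recoding factor gene Sbp2. They were chosen by gene name among genes already seen on these arrays, with their signals in all 13 arrays known. Their values are therefore a description and carry no test. The 6 genes were read through 7 probes, out of 25782 genes and transcript targets on the array, and all 6 passed the filter on dim probes, through which 19758 targets went into the fit.

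Testes of 5 genotypes were compared. The dany testes (3 arrays) carried dany[ex11] over the deficiency Df(2R)BSC802 in w[1118]/Y males. The sa testes (2 arrays) carried sa[1], on a chromosome marked th and red, over sa[2], on one marked ru, h and ca. The aly testes (2 arrays) came from w*/Y males with aly[2] over aly[5], each on a chromosome marked red and e. The topi testes (2 arrays) carried topi[Z3-0707] over topi[Z3-2139] in males marked bw, with +/Y as in the sa males. The control testes (4 arrays) carried Df(2R)BSC802 over + in w[1118]/Y males, so control and dany share 1 copy of the deficiency, and sa, aly and topi do not. For these 3 mutants genotype and chromosome background cannot be told apart. Each array held RNA of 80 pooled testes from males 0 to 2 days old raised at 25 °C. The series describes its replicates as biological.

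A eukaryotic ribosome joins a small subunit, which reads the mRNA, to a large subunit, which makes the peptide bond, and each holds its own set of ribosomal proteins. Initiation factor eIF3 is a complex of many subunits that binds the small subunit and brings it to an mRNA. A growing germ cell makes many ribosomes before meiosis, and spermatids later work with mRNA and ribosomes made earlier. In Drosophila, aly and topi encode members of a testis meiotic arrest complex and sa a testis-specific TAF, and males lacking any of them have spermatocytes that stop before the meiotic divisions.

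Signals are given as levels, the log2 of the array's processed spot signal minus the log2 of that array's 75th percentile, so that 0 is the signal of the 75th percentile probe and each unit is a 2-fold step. Levels compare 1 probe across arrays and are not comparable between probes. A difference was counted as called when its adjusted p in the limma fit over all targets was under 0.05 and the change was at least 2-fold.

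The arrays differed in ways that touch every value below. Between 75.3% and 76.5% of probes were well above background in dany, 68.7% to 72.6% for sa, 64.5% to 66.5% for aly, 62.4% to 64.5% for topi and 60.9% to 69.1% for control. The summed level of 5 testis germ-line markers (of 30 listed) was 504% to 676% of the 75th percentile in dany, 660% to 808% for sa, 1371% to 1825% for aly, 1814% to 2581% for topi and 2840% to 3416% for control. These sums add different probes and follow the brightest, f-cup and wuc, of which wuc had the higher mean level in topi. The marker f-cup was lower in all 4 mutants than in control. Its mean levels were 2.24 for dany, 2.28 for sa, 3.13 for aly, 3.24 for topi and 4.92 for control. The germ-line marker wuc went the other way in 3 of the 4 mutants. Its mean levels were 0.20 for dany, 1.21 for sa, 2.78 for aly, 3.60 for topi and 0.55 for control. For 3 somatic cyst and hub markers (of 9) it was 7.65% to 9.14% for dany, 7.35% to 9.21% for sa, 9.24% to 17% for aly, 9.95% to 12.2% for topi and 6.78% to 13.9% for control. For 3 gut markers (of 5) it was 78.7% to 91.4% for dany, 3.74% to 5.72% for sa, 5.09% to 6.39% for aly, 79.2% to 121% for topi and 2.75% to 4.87% for control. In dany all 3 gut markers were above their control levels, while in topi the sum is nearly all LysE (mean level -0.06), and Jon65Aiii and epsilonTry were well above background on 0 of 2 topi arrays. No listed marker of muscle, fat body, blood or accessory gland was matched to a probe. The part of these differences in the results below was not tested, and in pooled testes fewer cells of a type and less RNA per cell cannot be told apart.

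RpS29 was the 1 gene of the 6 that was lower in all 4 mutants than in control. Its protein lies in the head of the small subunit. Its level was -1.08, -0.70 and -0.77 on the dany arrays, -1.34 and -1.24 on the sa arrays, -2.80 and -2.29 on the aly arrays, -3.06 and -2.77 on the topi arrays, and -0.18, -0.10, 0.37 and -0.14 on the control arrays. No mutant array reached the lowest control array. The log2 differences from control were -0.84 ± 0.21 for dany, -1.28 ± 0.24 for sa, -2.54 ± 0.24 for aly and -2.90 ± 0.24 for topi (difference ± SE). In fold terms dany was 1.78-fold, sa 2.42-fold, aly 5.80-fold and topi 7.49-fold lower than control.

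The aly and topi testes were further from control than dany and sa. The mean of dany was above that of the other 3 mutants together by 1.40 ± 0.19, and sa was above aly and topi by 1.45 ± 0.24. The aly and topi arrays overlapped. In the RefSeq table RpS29 lies on chromosome arm 3R with topi as its left neighbour. It overlaps the antisense gene asRNA:CR31514, whose single probe was well above background on 0 of 13 arrays. The RpS29 probe is annotated through a cDNA clone of adult testis and not through a RefSeq transcript. The clone was tied to RpS29 by a synonym in the gene table, and its identity was not checked. All RpS29 values rest on that probe. For the gene 2 RefSeq transcripts are listed.

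RpS7 ran the other way in topi and the same way in dany. It encodes a small-subunit protein that in yeast is needed for 18S rRNA maturation. RpS7 had levels of -6.73, -6.49 and -6.67 for dany, -6.10 and -5.79 for sa, -5.09 and -4.86 for aly, -3.69 and -3.09 for topi, and -5.88, -5.75, -5.28 and -5.51 for control. The dany arrays all lay below the control arrays, the sa arrays overlapped them, and the aly and topi arrays lay above them. The log2 differences from control were -1.02 ± 0.21 for dany, -0.34 ± 0.24 for sa, 0.63 ± 0.24 for aly and 2.22 ± 0.24 for topi (difference ± SE). That made topi 4.65-fold higher than control and dany 2.03-fold lower.

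RpS7 was also the gene that set aly and topi apart, with a log2 difference of aly minus topi of -1.58 ± 0.28 and no overlap. Its probe is dim. The raw median spot signal was 87.5 to 103.5 units in dany, 117.25 to 123.25 for sa, 140 to 167.25 for aly, 235.5 to 349 for topi and 81 to 122.75 for control, where the median negative-control spot read 41.5 to 84 units over all arrays. On control array 1 the probe was not well above background. With the normexp background model and an offset of 50 units in place of the scanner's processed signal, topi stood 1.31 and aly 0.20 above control. Such an offset by itself shrinks the log2 differences of a dim probe. In the RefSeq table RpS7 lies on 3R with 4 transcripts, of which the probe is annotated to 1, and 7 small nucleolar RNA genes lie inside it.

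RpS3A, the third small-subunit gene, was higher than control in aly and topi. Its protein is known in yeast and mammals to touch eIF3 near the exit channel for mRNA. RpS3A had levels of -6.81, -6.29 and -6.37 for dany, -5.70 and -5.28 for sa, -5.52 and -4.74 for aly, -4.23 and -4.82 for topi, and -7.28, -5.61, -5.71 and -6.80 for control. The control arrays were spread over more than 1 unit. In these levels dany and sa overlapped them, while aly and topi did not. Differences from control were -0.14 ± 0.42 for dany, 0.86 ± 0.47 for sa, 1.23 ± 0.47 for aly and 1.82 ± 0.47 for topi (log2, ± SE).

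Control arrays 1 and 4, the lowest, were not well above background at this probe, which had a raw median signal of 91.5 to 116.5 units in dany, 141 in both sa arrays, 148 to 151 for aly, 159 to 187 for topi and 66.5 to 102.5 for control. Under normexp, with the same offset, the differences of RpS3A were -0.68 for dany, 0.13 for sa, 0.31 for aly and 0.76 for topi. RpS3A is the 1 gene of the 6 on chromosome 4, with 3 RefSeq transcripts and 1 small nucleolar RNA gene inside it. The other 5 lie on chromosome 3, RpS29 and RpS7 on arm 3R and RpL18, eIF3l and Sbp2 on arm 3L.

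RpL18 stands for the large subunit, which forms the peptide bond. Its level was 2.67, 1.74 and 2.48 for dany, 3.73 and 3.24 for sa, 4.47 and 4.05 for aly, 4.52 and 3.98 for topi, and 3.23, 2.78, 2.49 and 2.95 for control. The sa, aly and topi arrays all lay above the highest control array, sa by the least, and dany overlapped control. RpL18 differed from control by -0.57 ± 0.29 for dany, 0.62 ± 0.32 for sa, 1.40 ± 0.32 for aly and 1.39 ± 0.32 for topi (log2, ± SE). The folds over control were 2.64 for aly and 2.61 for topi.

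A second probe to the same RpL18 transcript gave differences of -0.12 for dany, 1.05 for sa, 1.80 for aly and 1.83 for topi. Both probes put the 4 mutants on the same sides of control. Direction in dany depended on the processing, with a difference of 0.12 after spike-in scaling, 0.26 after quantile normalization and 0.21 in the authors' deposited value table.

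**Figure D1:**
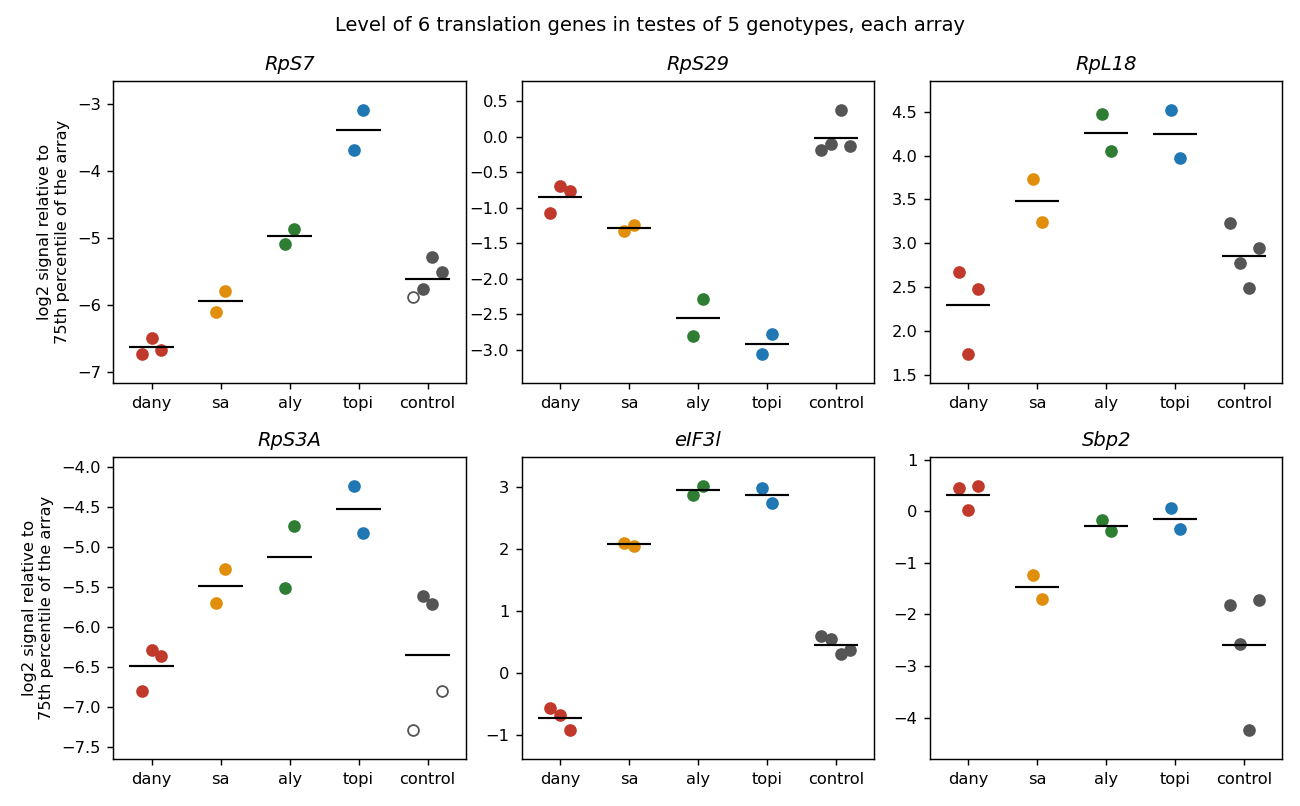
Level of each of the 6 genes on every array (y axis, log2 signal relative to the array's 75th percentile) in dany, sa, aly, topi and control testes (x axis). Each point is an array and each bar the mean of a genotype. RpS29 is highest in control and lowest in aly and topi, and eIF3l is lowest in dany.

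Among the 6 genes, eIF3l had the widest gap between dany and the other mutants. It encodes the l subunit of eIF3. Its level was -0.56, -0.68 and -0.91 for dany, 2.11 and 2.05 for sa, 2.88 and 3.02 for aly, 3.00 and 2.74 for topi, and 0.59, 0.55, 0.31 and 0.37 for control. The control arrays stood apart from all mutant arrays, with dany below them and sa, aly and topi above. The differences from control were -1.18 ± 0.16 for dany, 1.62 ± 0.19 for sa, 2.49 ± 0.19 for aly and 2.41 ± 0.19 for topi (log2, ± SE). Against the other 3 mutants together, dany had a log2 difference of -3.35 ± 0.15, which is 10.2-fold lower. The aly and topi arrays overlapped, and sa lay below both.

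Sbp2 was the gene with the largest difference in dany. In mammals SBP2 binds the selenocysteine insertion element of an mRNA and lets the ribosome read a stop codon as selenocysteine. Its level was 0.45, 0.03 and 0.49 for dany, -1.24 and -1.70 for sa, -0.18 and -0.38 for aly, 0.05 and -0.34 for topi, and -1.83, -2.57, -4.24 and -1.72 for control. All 9 mutant arrays were above the highest control array, the lower sa array by the least. The differences were 2.91 ± 0.51 for dany, 1.12 ± 0.58 for sa, 2.31 ± 0.58 for aly and 2.45 ± 0.58 for topi (log2, ± SE). Control array 3 was far below the other control arrays. Without it, dany was 2.36 and sa 0.57 above control.

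The order of the genotypes differed from gene to gene. For RpS29 it ran control, dany, sa, aly, topi from high to low, and only aly and topi overlapped among neighbours. RpS7 ran topi, aly, control, sa, dany, with control and sa overlapping. RpL18 and eIF3l both had aly and topi at the top, then sa, control and dany. For RpL18 aly overlapped topi and control overlapped dany, and for eIF3l the only overlap was between aly and topi. RpS3A ran topi, aly, sa, control, dany, and each pair of neighbours overlapped. Sbp2 ran dany, topi, aly, sa, control, with dany overlapping topi and topi overlapping aly.

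**Figure D2:**
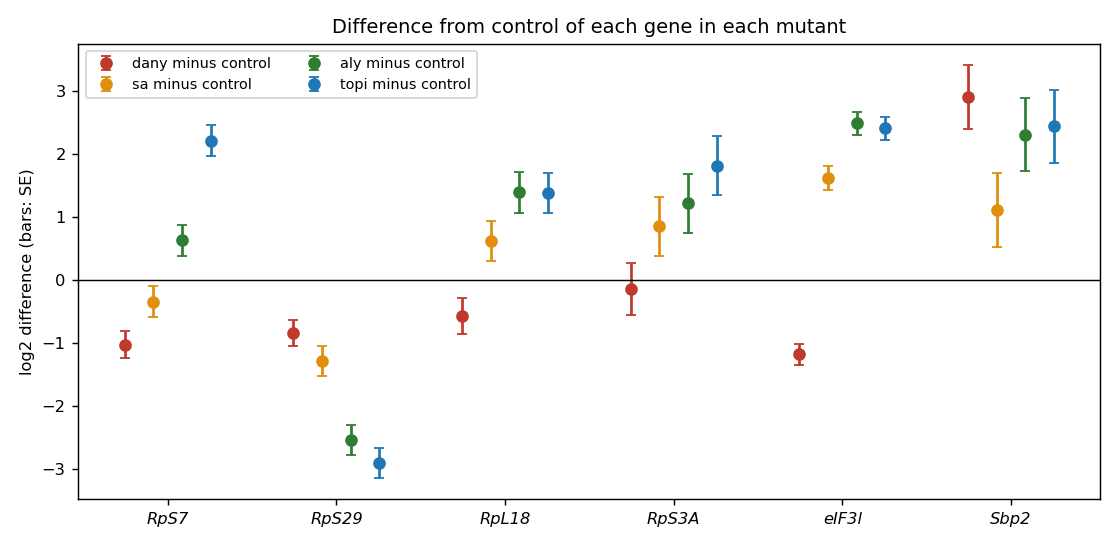
Difference of each mutant from control (y axis, log2) for the 6 genes (x axis), with bars for the standard error from the fit over all targets. RpS29 lies below 0 in all 4 mutants, Sbp2 above 0 in all 4, and eIF3l below 0 for dany only.

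Counts over the 6 genes were read against the share of all tested targets called in the same direction, and since the genes were chosen with these contrasts known nothing follows from the counts. In dany against control, 1 gene was called higher (Sbp2) and 2 lower (RpS7 and eIF3l), where 28% of all targets were called higher and 15.6% lower. In sa 1 was called higher (eIF3l) and 1 lower (RpS29), against 27% and 14.8% of all targets. In aly 4 were called higher (RpL18, RpS3A, eIF3l and Sbp2) and 1 lower, against 39.2% and 20.5%. In topi the other 5 were called higher and RpS29 lower, against 42% and 21.4%. The gene called lower in sa, aly and topi was RpS29 each time. The median difference of the 6 genes was -0.70 for dany, 0.74 for sa, 1.31 for aly and 2.02 for topi, where that of all targets was 0.06, 0.44, 0.77 and 0.81. The 4 comparisons share the control arrays.

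The calls of RpS7 in dany and of RpS3A hung on single arrays. RpS7 in dany was no longer called without control array 3 (-0.91), control array 4 (-0.99) or dany array 1 (-0.97). RpS3A in aly was no longer called without control array 1 (0.91), control array 4 (1.08), aly array 2 (0.84), or dany array 2 or 3, which leave its difference at 1.23. RpS3A in topi was no longer called without topi array 1 (1.53). The other called differences of the 6 genes from control were called with any 1 array left out.

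Between mutants, dany was called higher than the other 3 mutants together for 1 gene (RpS29) and lower for 4 (RpS7, RpL18, RpS3A and eIF3l), where 29.2% of all targets were called higher and 33.7% lower. Sbp2 in dany was 0.95 ± 0.47 above their mean, with overlap. Against the mean of aly and topi, sa was called higher for RpS29 and lower for RpS7, with 18.1% and 19.2% of targets called. Between aly and topi 0 genes were called higher and 1 lower (RpS7), with 7.28% and 7.66% of targets called.

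Many of these calls between mutants depended on the scaling. The calls over all targets moved with it too, as given at the end, so nothing about these genes is read from the changes. For dany against the other 3 mutants, eIF3l was the 1 gene called lower under spike-in and under ribosomal protein scaling, and RpS29 and Sbp2 were called higher under both. RpS29 was not called there under median scaling (0.62) or in the deposited values, and the 4 lower calls were kept. For sa against aly and topi, 0 genes were called under spike-in scaling, where RpS29 differed by 1.64 ± 0.67 and RpS7 by -1.57 ± 0.67 (log2, ± SE). Median scaling ended the RpS29 call there (0.99) and added RpL18, eIF3l and Sbp2 as lower, the deposited values ended it (0.93) and added Sbp2 as lower, and normexp ended that of RpS7 (-0.99). For aly against topi, spike-in scaling ended the RpS7 call, at -2.02 ± 0.77. Quantile normalization added Sbp2 as called higher in dany against the other 3 mutants.

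Because RpS29 was lower in aly and topi, where the other 5 genes were higher, each gene was also set against RpS29 on its own array, a difference in which any scaling of the array cancels. With the control mean at 0, eIF3l minus RpS29 averaged -0.34 for dany, 2.90 for sa, 5.03 for aly and 5.32 for topi. RpS7 minus RpS29 averaged -0.19, 0.94, 3.17 and 5.12 in the same order, and its control arrays spanned only -0.11 to 0.22. RpL18 minus RpS29 averaged 0.27 for dany, 1.90 for sa, 3.94 for aly and 4.29 for topi, and RpS3A minus RpS29 averaged 0.70, 2.13, 3.76 and 4.73. For these 4 genes the arrays of sa, aly and topi lay above all control arrays. Nothing is read from that, since RpS29 was taken as reference for its opposite direction and all targets were not set against it. RpS7 by itself overlapped control in sa (-0.34 ± 0.24), where RpS29 differed by -1.28 ± 0.24. In dany RpS7 minus RpS29 lay between -0.30 and -0.06 on the 3 arrays, and both genes were lower than control. Sbp2 minus RpS29 averaged 3.75 for dany, 2.39 for sa, 4.85 for aly and 5.35 for topi. The ratios show unequal change, not which of the genes in a pair changed. They all rest on the RpS29 probe, whose clone match was not checked.

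**Figure D3:**
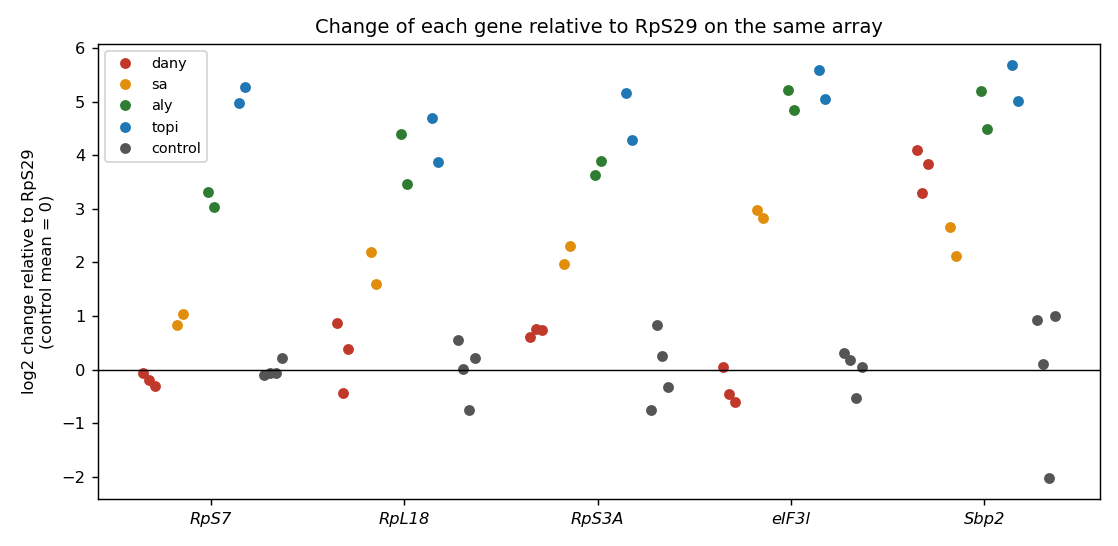
Log2 level of each of 5 genes minus that of RpS29 on the same array, set to a control mean of 0 (y axis), for each gene (x axis) and genotype. Each point is an array. In aly and topi all 5 genes lie above control, and in dany 4 of them average between -0.34 and 0.70 while Sbp2 averages 3.75.

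The choice of scaling moved the values. Scaling on the array median in place of the 75th percentile shifted the median difference of all targets by -0.76 for dany, -0.28 for sa, 0.23 for aly and 0.13 for topi. Scaling on spike-in probes shifted it by 0.69 for dany, -0.06 for sa, -0.47 for aly and -0.03 for topi. Scaling on the mean of 5 ribosomal protein genes shifted it by 0.49 for dany, -0.31 for sa, -0.59 for aly and -1.01 for topi. RpS29, RpS7, RpS3A and RpL18 are themselves 4 of those 5 genes, so this scaling sets the mean difference of the 5 to 0 by construction.

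The counts called over all targets moved with the scaling too, as given at the end. Nothing about these genes is therefore read from the changes in calls below. Under spike-in scaling the called genes in dany were reduced to Sbp2 and in sa to 0. In aly they were reduced to eIF3l and Sbp2 (higher) and RpS29 (lower). In topi they were reduced to RpS7, RpL18, eIF3l and Sbp2 (higher) and RpS29 (lower). The difference of eIF3l in sa was 1.56 ± 0.60 under spike-in scaling, against 1.62 ± 0.19 in the main fit. Under median scaling RpS29 and RpL18 were also called lower in dany. Under normexp, whose offset shrinks differences of dim probes, RpS7 in dany and RpS3A in aly and topi were not called. With quantile normalization RpS3A was not called in aly, RpS29 was also called lower in dany and RpL18 higher in sa. The deposited values gave these same changes, and with them RpS7 was not called in dany. After ribosomal protein scaling the called genes were Sbp2 in dany, eIF3l and RpS29 in sa and aly, and RpS7, eIF3l and RpS29 in topi. In that scaling the difference of RpS29 was -0.35 for dany, -1.58 for sa, -3.13 for aly and -3.91 for topi, that of eIF3l -0.69, 1.31, 1.90 and 1.41, and that of RpL18 for topi 0.38. The signs of RpS29, RpS7, eIF3l and Sbp2 against control kept to 1 side under all scalings, normalizations and background models tried. Those of RpL18 and RpS3A in dany did not. Several kept signs lay within their SE of 0. Under spike-in scaling dany differed by -0.15 ± 0.59 for RpS29, -0.33 ± 0.59 for RpS7 and -0.49 ± 0.53 for eIF3l. Under ribosomal protein scaling RpS7 in aly differed by 0.04 ± 0.24. The unscaled RpS29 and RpS7 signals of dany overlapped those of control. The 75th percentile they were divided by was 2743 to 3578 units in dany and 1220 to 2240 in control.

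**Figure D4:**
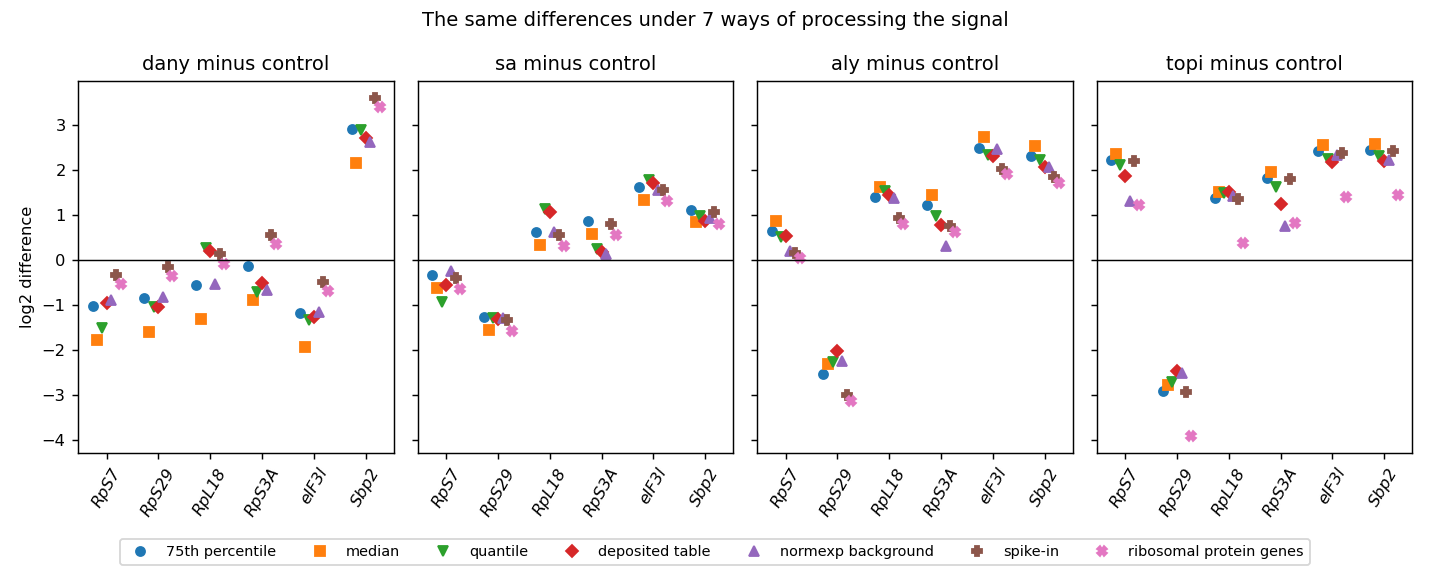
Log2 difference from control (y axis) of the 6 genes (x axis) in each mutant under 7 ways of processing the signal: scaling on the 75th percentile, the median, spike-in probes or ribosomal protein genes, quantile normalization, the authors' deposited table and normexp background correction. RpS29 is below 0 and Sbp2 above 0 in every panel, and RpL18 and RpS3A in dany lie on both sides of 0.

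The 13 arrays came from 4 slides, each holding a control array and 1 to 3 mutants. Within slides, mutant minus control for RpS29 was -1.07 to -0.63 over 3 slides for dany, and over 2 slides each -1.61 to -1.15 for sa, -2.62 to -2.19 for aly and -3.15 to -2.96 for topi. For eIF3l it was -1.29 to -0.99 for dany, 1.51 to 1.74 for sa, 2.29 to 2.48 for aly and 2.43 to 2.45 for topi. Sbp2 differed by 2.21 to 4.26 for dany, 0.58 to 2.53 for sa, 1.65 to 2.19 for aly and 2.63 to 3.89 for topi. RpS7 differed by -1.21 to -0.85 for dany, -0.51 to -0.22 for sa, 0.79 to 0.90 for aly and 2.07 to 2.19 for topi. RpL18 differed by -0.75 to -0.47 for dany, 0.50 to 0.75 for sa, 1.24 to 1.27 for aly and 1.49 to 1.74 for topi.

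Only RpS3A in dany changed sign between slides, from -0.58 to 0.48. In the other mutants RpS3A differed by 0.43 to 1.58 for sa, 0.87 to 1.77 for aly and 0.89 to 1.37 for topi. With the slide as a block, RpS3A (1.04) and Sbp2 (1.35) were also called higher in sa, and no call of the 6 genes against control was lost.

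By Pearson's r over the 13 arrays, each gene was set against 173 other named genes, as a description of levels that share the same arrays and scaling. The genes nearest to RpL18 were PlexA (0.983), mRpS16 (0.962) and lncRNA:roX2 (0.960), and those nearest to eIF3l were Vha13 (0.978), mRpS16 (0.965) and Polr2J (0.954). RpL18 and eIF3l thus had the mitochondrial ribosomal protein gene mRpS16 in common. RpS29 lay nearest to Vha100-3 (0.903), lncRNA:Yu (0.901) and sle (0.899), and had negative r with the other 5 genes, from -0.82 with RpL18 to -0.63 with Sbp2. RpS7 lay nearest to scaRNA:MeU5-C46 (0.886), wuc (0.881) and caps (0.872). RpS3A lay nearest to PDZ-GEF (0.914), ND-B14.7 (0.913) and gig (0.907), and Sbp2 to Abl (0.860), croc (0.849) and Tango14 (0.846).

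Other genes of translation were put through the same fit, and the choice of the 6 did not use them. The lists they come from were drawn up with earlier results of these data known. Their p-values therefore describe the fit and are not independent support. The listed genes described here are 13 that were matched to a probe, and all 13 were tested. Against control 1 of 13 was called higher and 0 lower in dany, 3 higher and 0 lower in sa, 8 higher and 1 lower in aly, and 8 higher and 3 lower in topi, where the shares of all targets were those given above. Among the 12 of them well above background on all control arrays, the counts were 1 higher and 0 lower in dany, 2 and 0 in sa, 7 and 1 in aly, and 7 and 3 in topi. The median difference of the 13 was 0.08 for dany, 0.63 for sa, 1.74 for aly and 1.89 for topi. Against the other 3 mutants together, 1 was called higher and 5 lower in dany, where 29.2% of all targets were called higher and 33.7% lower. Nothing is read from these counts.

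Of the initiation factor genes, eIF3g1, a second eIF3 subunit gene, rose in aly and topi. Its mean level was 1.41 ± 0.06 for dany (SD, n = 3), 2.30 ± 0.21 for sa, 3.14 ± 0.08 for aly, 3.53 ± 0.20 for topi (n = 2 each) and 1.33 ± 0.22 for control (n = 4). The difference of eIF3g1 was 0.08 for dany (limma adjusted p = 0.725), 0.97 for sa (limma adjusted p = 0.00259, just short of 2-fold), 1.81 for aly (limma adjusted p = 1.95e-05) and 2.20 for topi (limma adjusted p = 5.33e-06). Unlike eIF3l, eIF3g1 for dany overlapped control. The call of eIF3g1 for aly ended under spike-in scaling (1.34, limma adjusted p = 0.118). The gene mxt, which encodes an eIF4E-binding protein, fell by 2.18 in topi (limma adjusted p = 0.00162), where 1 of 2 topi arrays was well above background.

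Of 5 mitochondrial ribosomal protein genes, 4 were called higher in aly and 4 in topi, 1 in sa and 0 in dany. Of all targets 39.2% were called higher in aly, 42% in topi, 27% in sa and 28% in dany. With 5 genes nothing is read from these counts. mRpL52 differed by 2.13 for sa (limma adjusted p = 0.000441), 2.70 for aly (limma adjusted p = 3.73e-05) and 2.28 for topi (limma adjusted p = 0.000124). mRpS16 differed by -0.58 for dany (limma adjusted p = 0.0163, under 2-fold), 2.03 for aly (limma adjusted p = 7.76e-06) and 1.89 for topi (limma adjusted p = 1.3e-05). mRpL9 differed by 0.85 for dany (limma adjusted p = 0.00811, under 2-fold). It differed by 1.87 for aly and 2.42 for topi, and mRpL14 by 1.22 for aly and 1.65 for topi (limma adjusted p from 1.34e-05 to 0.000812 for mRpL9 and mRpL14). The fifth gene, mRpS24, was 2.24 higher in topi without passing the test (limma adjusted p = 0.0613). Spike-in scaling ended the calls of mRpL14 (0.75, limma adjusted p = 0.411) and mRpL9 (1.40, limma adjusted p = 0.122) in aly. Scaling on ribosomal protein genes brought mRpL14 under 2-fold in aly and topi (0.62 and 0.64) and mRpS16 for topi (0.88).

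Genes of ribosome building and of the nucleolus did not move as 1 group. The nucleolar protein gene sle fell by 2.40 in aly (limma adjusted p = 4.8e-06) and by 2.46 in topi (limma adjusted p = 4.09e-06), and its differences in dany and sa were -0.21 and -0.11. The snoRNA host genes Uhg2, Uhg3 and Uhg5 went different ways. Uhg5 rose in dany by 1.55 (limma adjusted p = 0.000117), in sa by 2.31 (limma adjusted p = 3.55e-05) and in aly by 3.04 (limma adjusted p = 2.1e-06), and fell by 1.60 in topi (limma adjusted p = 0.000161). Uhg2 rose by 1.74 in aly (limma adjusted p = 0.0016) and 1.98 for topi (limma adjusted p = 0.000628), and Uhg3 rose by 1.61 in topi (limma adjusted p = 0.00151). The call of Uhg5 for dany ended under median scaling (0.79) and in the authors' deposited values (0.96), and that in topi under normexp (-0.87). Spike-in scaling ended the calls of Uhg2 for aly (1.27, limma adjusted p = 0.168) and Uhg3 for topi (limma adjusted p = 0.0746), although the difference of Uhg3 was still 1.58, and ribosomal protein scaling those of both in topi (0.98 and 0.60).

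The last 2 of the 13 were TrpRS and bic. TrpRS, the gene of the cytosolic tryptophanyl-tRNA synthetase, differed by under 2-fold in all 4 mutants, with 0.79 for aly as its largest difference (limma adjusted p = 0.00277). The gene bic, which encodes the beta subunit of the nascent polypeptide-associated complex, was not well above background on any dany, sa or control array. It was at least 7.36-fold higher in aly (limma adjusted p = 1.31e-05) and at least 5.11-fold higher in topi (limma adjusted p = 3.62e-05) than in control. It passed the filter only through aly and topi, the genotypes where it is high, so that it had to differ, and its p-values carry no weight of their own. The folds are bounds for the scanner's processed signal only, from the lowest signals well above background on the control arrays. Under normexp, with an offset of 50 units that shrinks differences of dim probes, bic was 0.91 above control in aly and 0.88 above it in topi, under 2-fold. Its call in sa, counted above, sets 2 values below background against each other.

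**Figure D5:**
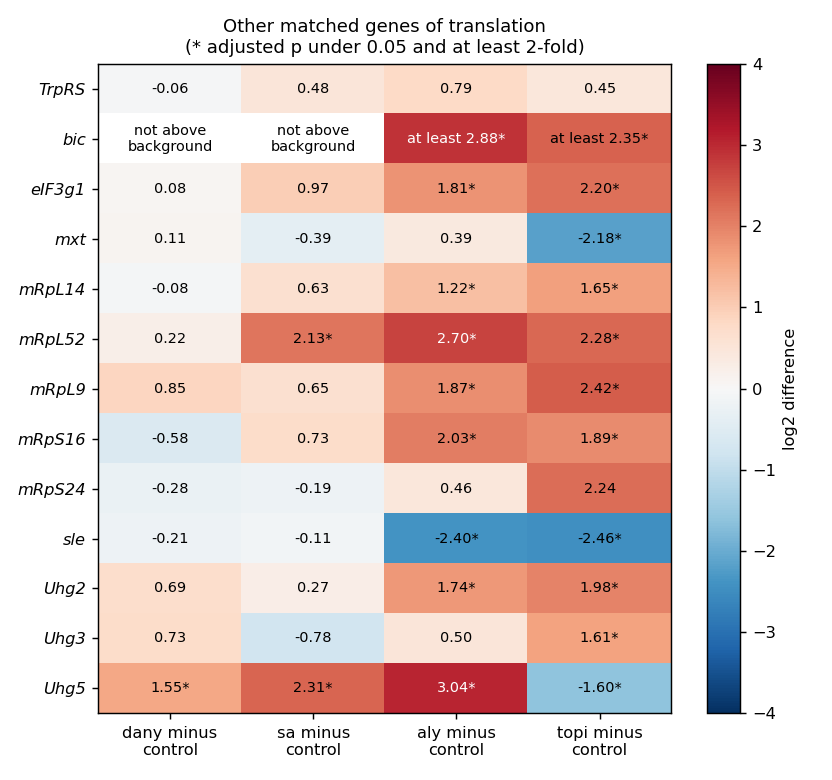
Log2 difference from control (colour and printed value) of 13 other genes of translation (rows) in each mutant (columns). An asterisk marks an adjusted p under 0.05 with at least 2-fold change. Values for bic are lower bounds on the processed signal where it was above background in the mutant, and its asterisks carry no weight of their own. Most called cells lie in the aly and topi columns, the mutants in which the most of all targets were called as well. Uhg5 is higher in dany, sa and aly and lower in topi.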

How the data were processed

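The deposited scanner files give linear intensity per spot, extracted by the authors with Agilent Feature Extraction 10.7.3.1, per the file headers, with flags for background, saturation and outlier spots. The deposited series value table holds log2 values of the same arrays, with array medians of 7.89 to 7.90 and genes not centred; how it was normalized is not given in the sources used here. From the intensities, spots flagged as outliers were left out where the probe had an unflagged spot on that array, and kept otherwise. Log2 signals were scaled to each array's 75th percentile. The brightest probe of a target was kept if well above background on all arrays of at least 1 genotype. One mean per genotype was fitted over 13 arrays with limma 3.58.1 in R 4.3.3, with Benjamini-Hochberg adjustment over 19758 targets, after a test on simulated data. The number of arrays limits the precision, and no spot was saturated. Of 32162 probes 549 were matched to 1 symbol (393 by accession, 156 by synonym), 3 to several and 31610 to none. The 6 genes, the gene lists and the alternatives were chosen with earlier results of these data known. Named genes are the 6, 13 other listed genes that matched (1 more is not reported here), and the 3 genes with the highest r for each of the 6. The design was annotated to an earlier genome release than the gene table, so no coordinates are given. Alternatives were other scalings, quantile normalization, normexp with an offset of 50 units, filters, the deposited values, slide and replicate blocks, and leaving out each array.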

Additional observations from a re-analysis of the deposited data

Results flagged for a closer look

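The level of RpS29 on control array 3 stood away from the other control arrays. It was 0.37, against -0.18, -0.10 and -0.14, and its gap to the nearest was 0.855 of the group's range. Leaving that array out kept RpS29 lower than control in all 4 mutants.

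The level of mRpS24 on control array 1 stood away as well, with a gap of 0.936 of the range. It was -3.86, and the other 3 control arrays lay between -5.27 and -5.18. Chance alone marks about 1 in 20 groups of arrays, and 19 genes were examined.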

How the results depend on the processing

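Among the targets called changed, spike-in scaling gave 3990 for sa and 7062 for aly against control, 3555 for sa against aly and topi, and 1165 for aly against topi. Keeping only probes above background on all arrays, which tests fewer targets and drops RpS7 and RpS3A, gave 4568 for dany, 4805 for sa, 7103 for aly and 7531 for topi against control, 7169 for dany against the other mutants, 4175 for sa against aly and topi and 1653 for aly against topi. Over the control arrays the spike-in scale ran from -2.62 to -0.90 relative to the 75th percentile (log2). The SE of eIF3l in dany was 0.53 with it, against 0.16 in the main fit. The cause of the spike-in change was not tested. Under the other alternatives run in full these counts stayed within 1.5 times. Leaving out 1 array at a time gave 8211 to 9273 for dany, 6381 to 8845 for sa, 10993 to 12282 for aly and 10910 to 12862 for topi against control, 11688 to 12740 for dany against the other mutants, 5361 to 7826 for sa against aly and topi and 2020 to 3516 for aly against topi.

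The share of calls that were higher followed the scaling. In dany it was 64.2% on the 75th percentile, 33.5% on the median, 87.6% on spike-ins, 81.4% on ribosomal protein genes, 51.5% with normexp and 51.8% with the strict filter. In sa it was 64.6%, 50.6%, 53.1%, 49.9% and 52.8% in that order without the filter. In aly 65.7% became 45.3% on spike-ins and 48.4% on ribosomal protein genes, and in topi 66.3% became 37.2% on the last. For dany against the other mutants it was 46.4%, and 29.5% on the median, 85.9% on spike-ins, 87.3% on ribosomal protein genes, 35.8% with no filter and 30.6% with the strict one. For sa against aly and topi it was 48.6%, and 29.9%, 79.3%, 72.5% and, with the strict filter, 33.3%. For aly against topi 48.7% became 70.0% on ribosomal protein genes.

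Of 448 differences of the 6 genes recomputed with all arrays, 335 moved by less than the replicate spread, 113 by more, and 14 changed sign. Of 546 with an array left out, 8 moved by more and 7 changed sign. Part of both sets could not move. The changed filters and, for genes with a single probe, the mean of a gene's probes kept the same probe and values. Leaving out an array outside a comparison leaves its difference unchanged. The counts are therefore no measure of how stable the differences are. The sign changes were those of RpL18 and RpS3A in dany and differences between aly and topi. For the other genes of translation, an alternative added after seeing the data, the count called in dany was 2 under median scaling, 2 under quantile normalization and 4 under ribosomal protein scaling. It was 5 in aly under spike-in scaling and 7 in topi under ribosomal protein scaling. With 1 array left out it was 1 to 2 for dany, 2 to 3 for sa, 9 for aly, 11 to 12 for topi and 6 to 7 for dany against the other mutants.

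Same-numbered arrays correlated at -0.05 to 0.75 after group means were removed (12 of 21 pairs over 0.1), and 1 of 3 dany arrays correlated best with the control of its number, so the numbers were not taken as pairs. The fourth control array is numbered 4 in 1 label and 3 in another. It shares a slide with dany array 3 and correlates with it at 0.52, so by the other label 2 of 3 would match. Arrays on the same slide correlated at a median of 0.56 (11 of 16 pairs over 0.1). For pairs sharing neither number nor slide the median was -0.09. Removing the group means makes the 2 arrays of sa, of aly and of topi mirror images. Their correlations with another array are equal and opposite, so these pairs are not independent of each other. Each dany array correlated best with the control on its slide (0.67, 0.60 and 0.52). The main fit has no slide term, and with the slide as a block the SE of RpL18 in dany was 0.12 in place of 0.29. A fit with the replicate number as a block called 8793 targets in dany, 8014 for sa, 11654 for aly and 12308 for topi, and RpS7 for dany (-0.99) was not called in it. Dim signal limits RpS7, RpS3A and bic.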
